A study of Homo sapiens with 15 samples.

Results

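The nuclear genes of oxidative phosphorylation were followed across 15 RNA-seq libraries of differentiating H9 cells, an established line of human embryonic stem cells. They were chosen by gene symbol, as NDUFA, NDUFB, NDUFC, NDUFS and NDUFV genes, SDHA to SDHD, UQCR genes, COX4 to COX8 genes, ATP5 genes and CYC1. Of 60675 genes in the deposited count table, 269 matched. Leaving out 173 pseudogenes, 3 antisense genes and 3 divergent transcripts gave 90 genes, and 81 of them had enough counts to be tested. They comprised 39 genes of complex I, 4 of complex II, 10 of complex III, 17 of complex IV and 20 of the ATP synthase. The complexes follow the symbols, so that NDUFA4, known as a complex IV subunit, and its relative NDUFA4L2 count with complex I in every sum, count and median below. No measured value entered the choice.

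All libraries were wild-type H9 cells collected on day 7 of a protocol directed at the osteogenic lineage. Cells grew in a serum medium that permits spontaneous differentiation, and vitamin D3, β-glycerophosphate and ascorbic acid were added from day 5. Particles were present from day 0 to day 7. The control group (UNT) received DMSO at 0.1%. Fine particulate matter was given at 0.00062 µg/mL (FPM_IC25) or 1.4 µg/mL (FPM_IC50), and a NIST standard reference material at 0.003 µg/mL (SRM_IC25) or 5.9 µg/mL (SRM_IC50). The labels call these the IC25 and IC50 of each particle, based on protein, so that the particles were not matched in mass. Each group held 3 libraries. Nothing in the labels ties the replicates of this 1 line to separate cultures, so every p-value is set against a spread between libraries that may be technical.

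Oxidative phosphorylation passes electrons from NADH and succinate along the inner mitochondrial membrane to oxygen and uses the resulting proton gradient to make ATP. Complex I (NADH dehydrogenase) and complex II (succinate dehydrogenase) take up the electrons, complex III (cytochrome bc1) hands them to cytochrome c, complex IV (cytochrome c oxidase) reduces oxygen, and the ATP synthase uses the gradient. Most subunits are encoded in the nucleus and a small set in mitochondrial DNA, and pluripotent cells are known to rely heavily on glycolysis and to take up more oxidative metabolism as they differentiate. Several complex IV subunits have paralogs used in heart, muscle, lung or testis.

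Total counts ranged from 9.34 M to 58.2 M per library. Genes annotated as antisense took 0.942% to 1.5% of counts in the 6 FPM libraries and 0.274% to 0.319% in the other 9. POU5F1 and the other 7 pluripotency markers summed to 2502 to 3017 CPM (counts scaled to a common library size with TMM factors) at SRM_IC50, 1634 to 1873 CPM in UNT and 1213 to 1528 CPM in the other 3 groups. The 10 amnion and trophoblast markers summed to 340 to 377 CPM at SRM_IC50 and to 1414 to 2156 CPM in the 4 other groups. Of 7 osteoblast markers, IBSP did not exceed 0.061 CPM, BGLAP stayed under 0.55 CPM and SP7 under 1.8 CPM in any library, while SPP1, COL1A1, ALPL and RUNX2 were detected throughout. Together the 7 summed to 935 to 1048 CPM at SRM_IC50 and 517 to 746 CPM in the other groups. Of the 5 tested, 4 had estimates above UNT at SRM_IC50 and 1 below. The 5 neuroectoderm markers summed to 84.8 to 92.7 CPM at SRM_IC50, 59.8 to 130 at FPM_IC25 and 127 to 269 in the other groups. At SRM_IC50 and also at FPM_IC25, 4 of these 5 had estimates below UNT and 1 above. In bulk RNA, fewer cells of a type and less RNA per cell cannot be told apart.

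Most of the respiratory chain was well expressed in the control cells: 76 of the 90 genes were above 10 CPM, 2 lay between 1 and 10 CPM and 12 under 1 CPM. Summed over its genes in UNT, the ATP synthase stood at 3500 ± 530 CPM (SD, n = 3), complex I at 2450 ± 493, complex IV at 1520 ± 388, complex III at 1140 ± 202 and complex II at 293 ± 31.4. Scaled by length, the median gene reached 38.6 FPKM (fragments scaled by gene length and library size) in the ATP synthase, 35.6 in complex IV, 32.8 in complex III, 20 in complex I and 12.1 in complex II. The highest FPKM in UNT belonged to NDUFS5, an accessory complex I subunit, at 316 ± 67.8 FPKM. ATP5F1B, the catalytic beta subunit of the ATP synthase, followed at 271 ± 0.863 FPKM, and their difference lay within the spread of NDUFS5. UQCRH, the hinge subunit of complex III, at 166 ± 31.5 FPKM, COX6B1 at 141 ± 32.9 FPKM and ATP5MK at 130 ± 34.2 FPKM formed the next steps. COX6B1 lay within 1 SD of UQCRH, and ATP5MK within 1 SD of COX6B1.

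The general isoform was the higher one in each complex IV pair. In UNT, COX4I1 stood at 62.7 ± 15.2 FPKM and COX4I2, the isoform of lung and low oxygen, at 0.189 ± 0.102 FPKM. COX6A1 reached 42.2 ± 8.87 FPKM, whereas COX6A2, its heart and muscle counterpart, was at 0 counts in all 15 libraries, which allows up to 3 counts, or 0.0504 to 0.309 CPM, in a library; such limits cover counting error only. COX7A2 was at 61.5 ± 16.1 FPKM, and the muscle form COX7A1 totalled 13 counts in the whole series. COX8A, at 104 ± 28.0 FPKM, had a counterpart of 27 counts in all, COX8C. COX7B, at 25.6 ± 5.96 FPKM, stood beside COX7B2 at 0 counts. NDUFA4, a complex IV subunit that still carries its complex I name and adds 243 CPM to the complex I sum in UNT, was at 66.1 ± 10.1 FPKM, and NDUFA4L2, known as its hypoxia-induced relative, at 0.128 ± 0.0403 FPKM. The 9 muscle markers summed to 95.5 to 145 CPM in the 15 libraries, and 6 of them were tested. MYOG did not exceed 0.0336 CPM and CKM 0.17 CPM in any library, whereas ACTA1 and TNNT2 were detected in every one. TTN, the giant sarcomere protein, was higher at both FPM doses than in UNT (log2 fold change 3.95 and 4.21), the 1 muscle marker called there. An antisense gene overlaps TTN and the strand setting of the counting is not given, so reads of the pair cannot be told apart. The part of muscle markers in the values of the subunit genes was not tested.

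Among the catalytic and core subunits, ATP5F1A, the alpha subunit of the ATP synthase, stood at 67.8 ± 2.29 FPKM in UNT and UQCRC1, a core protein of complex III, at 57.3 ± 8.72. CYC1, the cytochrome c1 of complex III, measured 35.7 ± 1.15 FPKM, and UQCRFS1, its Rieske iron-sulphur protein, 28.0 ± 4.51. NDUFV1, which binds NADH in complex I, was at 28.6 ± 5.06 FPKM, and NDUFS1 was lower, at 7.84 ± 0.615. Complex II was low throughout, with SDHA at 8.59 ± 0.45 FPKM, SDHC at 8.91 ± 0.519, SDHB at 15.4 ± 3.20 and SDHD at 18.9 ± 1.71. The 3 genes for the c-ring of the ATP synthase, which encode the same mature protein, were unequal: ATP5MC2 gave 49.8 ± 5.81 FPKM, ATP5MC3 33.7 ± 5.42 and ATP5MC1 11.8 ± 2.42. ATP5IF1, the inhibitor that blocks ATP hydrolysis by the enzyme, stood at 37.6 ± 7.20 FPKM.

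The 9 genes left untested were COX7B2, COX6A2, NDUFC2-KCTD14, ATP5MGL, COX7A1, COX4I2, COX8C, NDUFA4L2 and NDUFA7. NDUFA7 belongs to complex I and is not a tissue isoform, yet it had 4 to 31 counts per library. NDUFV2, a core subunit of the NADH-binding module, had 5 to 64 counts, and NDUFA13, a complex I membrane-arm subunit, 12 to 87. Each shares exons with a second annotated gene on its own strand, and for NDUFA7 and NDUFV2 that second gene was at or below 0.151 CPM in every library. In all, 27 of the 90 genes share exons with a same-strand gene, with a median of 54.6 CPM in UNT against 80.2 CPM for the 63 that do not. How reads in shared exons were counted is not given in the sources used here, so the low values of these 3 genes are uncertain, and the part of the overlap in them was not tested.

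These genes varied widely between libraries of the same group. Summed over all 90 genes, the UNT libraries stood at 7305, 8823 and 10590 CPM. FPM_IC25 gave 7674, 7022 and 8309 CPM, FPM_IC50 7354, 6425 and 8305, SRM_IC25 7745, 9929 and 10280, and SRM_IC50 7603, 8178 and 11660. Of the 12 exposed libraries, 2 FPM libraries were below the lowest control and 1 SRM_IC50 library was above the highest.

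**Figure D1:**
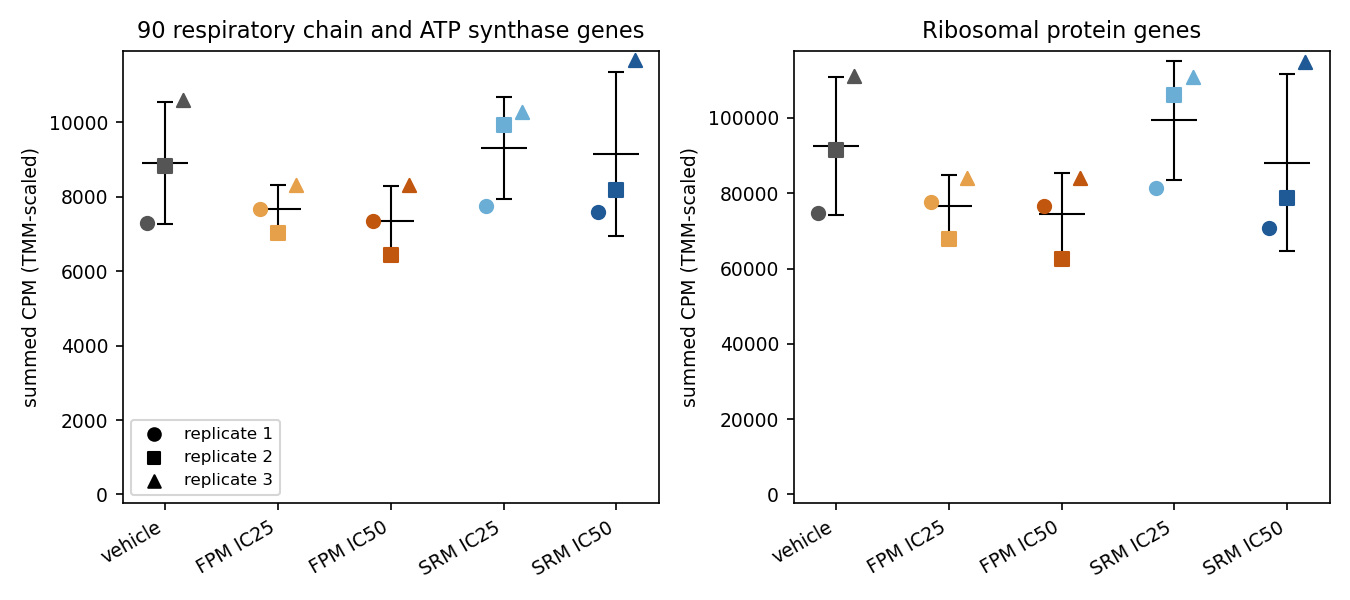
Summed TMM-scaled CPM in each library (y axis) by group (x axis) for the 90 oxidative phosphorylation genes (left) and the ribosomal protein genes (right); bars are mean and SD of 3 libraries, and the marker shape is the replicate number. The library numbered 3 was highest in each of the 5 groups for the 90 genes, from 8305 CPM at FPM_IC50 to 11660 CPM at SRM_IC50.

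Within a group, most subunit genes were high or low in the same libraries. The sums of complex II ordered the libraries differently from the other 4 complexes in places: at FPM_IC50 they were 240, 247 and 276.6 CPM in replicates 1 to 3, with replicate 1 lowest, while the other complexes were lowest in replicate 2. Of the 81 tested genes, 5, 36 and 77 were above their group's mean log2 CPM in UNT replicates 1, 2 and 3. At SRM_IC50 the counts were 6, 7 and 76, at SRM_IC25 6, 78 and 71, at FPM_IC25 44, 7 and 76, and at FPM_IC50 40, 4 and 78. Over all 19012 tested genes, 47.4% to 53.8% were above the group mean in any library. The median pooled SD within groups was 0.285 log2 units for the 81 genes, 0.212 for all tested genes and 0.127 for the 3183 genes at the level of the middle 50% of the 81.

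The spread was wider in genes with short coding sequences. The 47 genes with coding sequences under 500 bases had a median SD of 0.317 log2 units, the 22 from 500 to under 1000 bases 0.278, and the 12 of 1000 bases or more 0.11. Between UNT replicates 1 and 3 the medians rose by 0.677, 0.644 and 0.154 log2 units in these 3 classes. Other genes at the same level showed smaller steps of 0.424, 0.199 and -0.138 between the same libraries. The steadiest genes were NDUFA10 (SD 0.0761), NDUFS1 (0.0795), the largest core subunit of complex I, UQCRC2 (0.0840), a complex III core protein, and ATP5F1B (0.0877). SDHC, at 0.102, and NDUFA5, at 0.125, were less steady than these but close to the 0.11 of the longest class, with coding sequences of 507 and 348 bases. Ribosomal protein genes, which are also short, went the same way, from 74630 to 91550 to 111200 CPM over UNT replicates 1, 2 and 3 and from 70670 to 78700 to 114900 over those of SRM_IC50. The length classes and the ribosomal list were chosen after the values were seen, and the part of transcript length or RNA handling in the spread was not tested.

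**Figure D2:**
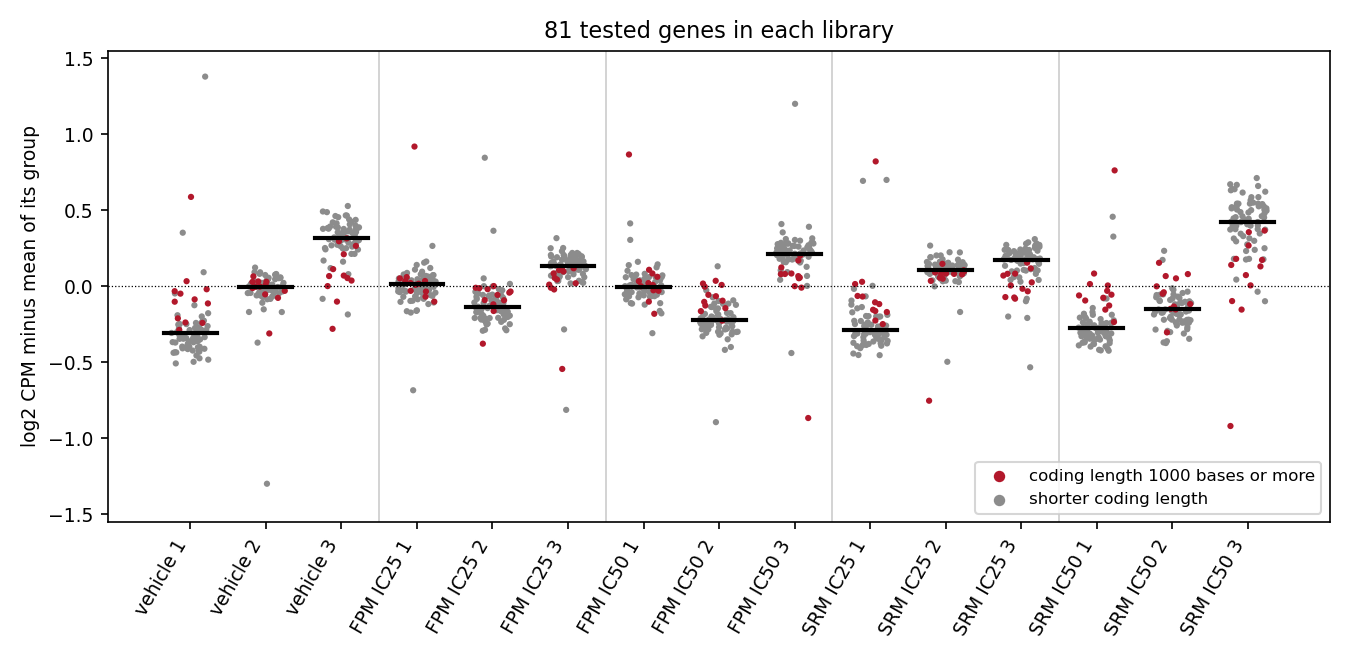
Log2 CPM of each of the 81 tested genes minus the mean of its group (y axis) in the 15 libraries (x axis, group and replicate number); black bars are medians, and red points are the 12 genes with coding sequences of 1000 bases or more. The cloud of genes shifts as a whole, from a median of -0.308 in vehicle replicate 1 to 0.316 in vehicle replicate 3 and 0.423 in SRM IC50 replicate 3, while the red points stay nearer to 0; the isolated red point far from the others is ATP5MF-PTCD1.

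With fine particulate matter nearly all of these genes had estimates slightly below the controls, and few passed the test. At FPM_IC25, 76 of 81 had an estimate below 0, with a median log2 fold change of -0.20 against UNT (all tested genes -0.0018). At FPM_IC50 there were 75 of 81, with a median of -0.27 (all tested genes 0.0065). By edgeR's quasi-likelihood test with Benjamini-Hochberg adjustment over all genes, 1 of the 81 genes rose and 0 fell at FPM_IC25, where 14.2% of all tested genes were called (10.7% higher and 3.51% lower), and 1 rose and 1 fell at FPM_IC50, where 13.6% were called (10.8% higher and 2.77% lower). At an unadjusted p under 0.05, 7 and 11 of the 81 were lower, beside 10% and 9.38% of all tested genes. With no filter on low counts, 14 and 29 were called instead of 1 and 2, and the share of all genes in that fit is not given here. Both comparisons share the UNT libraries, and the genes share their libraries, so that 76 estimates of 1 sign are not 76 observations. Leaving out UNT replicate 1 gave 3 and 8 genes called lower, and leaving out any other single library of the groups compared gave at most 2. Those 8 rest on the remaining 2 controls, which held the higher sums. Other lists had estimates below 0 as well: the medians at FPM_IC25 and FPM_IC50 were -0.30 and -0.33 for 77 cytosolic ribosomal protein genes, with 77 and 75 below 0, and -0.17 and -0.22 for 76 mitochondrial ribosome genes. At FPM_IC50 the median was -0.31 for the 47 subunit genes with under 500 coding bases and -0.21 for 202 other genes of that length at a like level.

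The median estimate was below 0 in each of the 5 complexes. At FPM_IC50 the median log2 fold change was -0.24 for 36 complex I genes, -0.24 for the 4 of complex II, -0.18 for 10 of complex III, -0.33 for 12 of complex IV and -0.28 for 19 of the ATP synthase. ATP5PO, the stalk subunit of the ATP synthase known for oligomycin sensitivity, stood at -0.60 ± 0.23 (log2 fold change ± SE, adjusted p = 0.103, edgeR) and NDUFC2 at -0.59 ± 0.25 (adjusted p = 0.153). Closer to 0, NDUFS1 stood at -0.03 ± 0.08 and ATP5F1B at -0.08 ± 0.09, with a 95% interval of -0.28 to 0.11. The 6 estimates above 0 included CYC1 at 0.06 and the low-count COX6B2 at 0.39 and ATP5MF-PTCD1 at 4.24. Of NDUFS1, NDUFV1, SDHA, UQCRC1, ATP5F1A and ATP5F1B, 0 passed at either FPM dose.

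UQCRHL was the subunit gene that fell at FPM_IC50. It measured 4.63, 4.82 and 7.13 CPM in UNT and 3.31, 3.12 and 3.80 CPM at FPM_IC50, groups that did not overlap (log2 fold change -0.70 ± 0.20, adjusted p = 0.0264, edgeR). It is a near-identical copy of UQCRH on chromosome 1, positions 15807169 to 15809348 of GRCh38, so reads of UQCRH could be counted there. UQCRH itself measured 188, 248 and 291 CPM in UNT and 181, 153 and 204 CPM at FPM_IC50, and did not pass (adjusted p = 0.214). The call of UQCRHL was lost in 7 of 17 alternatives, among them without UNT replicate 3 and without FPM_IC50 replicates 1 or 2.

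The gene that rose at both FPM doses was ATP5MF-PTCD1, a readthrough transcript that joins ATP5MF, a membrane subunit of the ATP synthase, to PTCD1, a mitochondrial RNA-processing gene. Its counts were 3, 1 and 1 in UNT, 35, 31 and 76 at FPM_IC25, 32, 34 and 10 at FPM_IC50, 2, 1 and 1 at SRM_IC25 and 3, 1 and 0 at SRM_IC50. Every FPM library was above every other library, at 0.905 to 3.60 CPM against at most 0.151 CPM. The log2 fold change was 4.24 ± 0.69 at FPM_IC25 (adjusted p = 2.5e-04, edgeR) and 4.24 ± 0.71 at FPM_IC50 (adjusted p = 3.08e-04), values that rest on 5 counts in UNT. The gene passed the filter on low counts only through the FPM libraries, where it was high, so its calls are not independent of the filter.

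Its partners did not move alike. ATP5MF measured 48.8, 59.8 and 80.9 CPM in UNT and 51.9, 57.0 and 67.5 CPM at FPM_IC25, with overlapping groups and a log2 fold change of -0.10 (95% interval -0.55 to 0.36). PTCD1 measured 6.52 to 7.31 CPM in UNT, 14.1 to 17.4 at FPM_IC25, 11.8 to 17.5 at FPM_IC50 and 6.96 to 8.08 in the SRM libraries. The readthrough spans chromosome 7, positions 99419749 to 99466197 on the minus strand, and its exons overlap exons of CPSF4 on the other strand. CPSF4 stood at 49.1 to 65.3 CPM in the 15 libraries. The share of counts in antisense genes was higher in the same 6 FPM libraries, and so was MT-ND6, the only subunit read from the light strand of mitochondrial DNA, at 316 to 427 CPM against 65.5 to 131 CPM in the other 9. The part of opposite-strand reads in the rise of ATP5MF-PTCD1 was not tested.

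**Figure D3:**
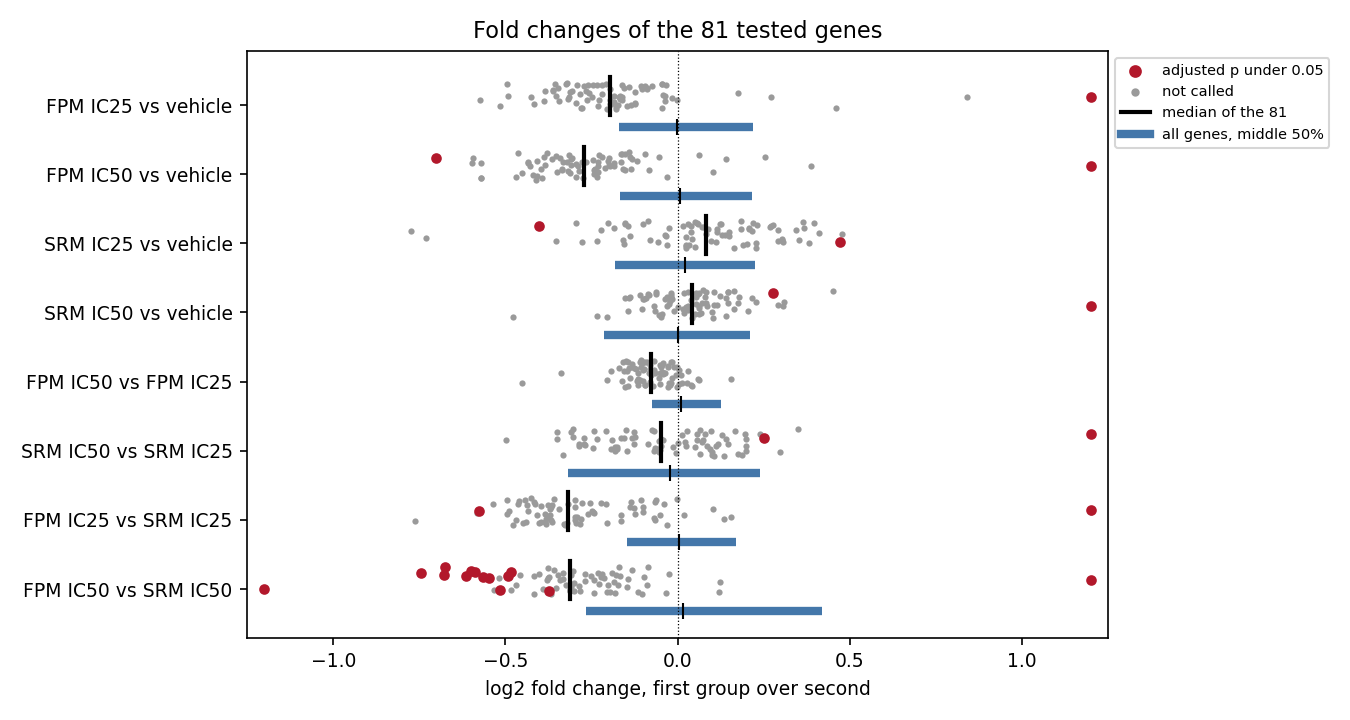
Log2 fold changes (x axis) of the 81 tested genes in 8 comparisons (y axis); red points passed an adjusted p of 0.05, black bars are medians of the 81 genes and blue bars the middle 50% of all tested genes. The 81 genes lie to the left in the 4 comparisons of FPM with vehicle or SRM, with medians of -0.196 to -0.318, and 8 fold changes beyond 1.2 are drawn at the axis limit.

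At the lower dose of the reference material, few genes were called, both among the subunit genes and among all tested genes. Against UNT, 1 of 81 genes was called higher and 1 lower at SRM_IC25. This was 2.47% of the 81, beside 4.37% of all tested genes (0.989% higher and 3.38% lower). The median log2 fold change was 0.08 (all tested genes 0.02). CYC1, the cytochrome c1 subunit that passes electrons to cytochrome c, measured 70.3, 70.9 and 76.8 CPM in UNT and 91.5, 101 and 110 CPM at SRM_IC25 (log2 fold change 0.47 ± 0.11, adjusted p = 0.0301, edgeR). NDUFA5, an accessory complex I subunit, measured 68.0, 82.5 and 89.4 CPM in UNT and 56.6, 61.8 and 62.9 CPM at SRM_IC25 (-0.40 ± 0.10, adjusted p = 0.0392). Neither pair of groups overlapped. Both calls were lost with a correction for GC content and when only SRM and UNT libraries were fitted. CYC1 was not called without any single UNT library, nor without SRM_IC25 replicates 2 or 3, and NDUFA5 was called in 1 of its 6 leave-outs, that of UNT replicate 1.

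At the higher dose of the reference material, 2 of 81 genes rose, COX6B2 among them, and 0 fell, where 17.6% of all tested genes were called (7.96% higher and 9.59% lower). The median log2 fold change of the 81 was 0.04 (all tested genes 0). Several catalytic and core subunits had estimates near 0: SDHA, the flavin subunit of complex II, had a log2 fold change of 0.05, UQCRC1 0.06 and ATP5F1B 0.05 (95% interval -0.15 to 0.25). The same libraries carried the higher pluripotency and osteoblast and the lower amnion and trophoblast marker sums, whose part in these changes was not tested.

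COX6B2 had the largest fold change of the 81 tested genes at SRM_IC50. It encodes the testis form of a small subunit on the outer face of complex IV, and COX6B1 is its general paralog. Its counts were 5, 0 and 1 in UNT, 2, 9 and 6 at FPM_IC25, 1, 1 and 4 at FPM_IC50, 2, 2 and 1 at SRM_IC25 and 23, 21 and 10 at SRM_IC50. Scaled by library, SRM_IC50 stood at 0.780, 1.07 and 0.879 CPM, and the other 12 libraries between 0 and 0.418 CPM, so that the groups did not overlap. The log2 fold change was 2.96 ± 0.69 against UNT (adjusted p = 0.00621, edgeR) and 3.69 ± 0.71 against SRM_IC25 (adjusted p = 0.00108). Both calls held in all 15 alternatives that could test the gene, with 0.0305 and 0.0230 as the largest adjusted p. COX6B2 passed the filter on low counts only through the SRM_IC50 libraries, where it was high. Its calls are therefore not independent of the filter, and the alternatives reuse the same few counts.

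Even so, COX6B2 remained a minor isoform. COX6B1 measured 105, 129 and 174 CPM in UNT and 102, 124 and 190 CPM at SRM_IC50, with a log2 fold change of 0.02 (95% interval -0.47 to 0.52). Per length, SRM_IC50 averaged 0.235 FPKM of COX6B2 beside 145 FPKM of COX6B1. KMT5C, a histone methyltransferase gene on the other strand within 5 kb, stood at 26.2 to 31.9 CPM in UNT and 27.1 to 33.4 CPM at SRM_IC50 (log2 fold change 0.05, adjusted p = 0.858, edgeR). IL11, a same-strand neighbour that encodes a cytokine, measured 2.59 to 4.09 CPM in UNT and 4.43 to 6.15 CPM at SRM_IC50 and did not pass (adjusted p = 0.0686).

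The upstream sequences of the paralogs are shown because COX6B2 passed the test at SRM_IC50 and COX6B1 did not. Both are the 250 bases before the RefSeq start site (GRCh38.p14), read 5′ to 3′ on the gene's strand, at chr19:55354720-55354969 (minus strand) for COX6B2 and chr19:35648073-35648322 (plus strand) for COX6B1. No capitals appear, since neither window holds any of the 4 motifs searched for further on.
COX6B2: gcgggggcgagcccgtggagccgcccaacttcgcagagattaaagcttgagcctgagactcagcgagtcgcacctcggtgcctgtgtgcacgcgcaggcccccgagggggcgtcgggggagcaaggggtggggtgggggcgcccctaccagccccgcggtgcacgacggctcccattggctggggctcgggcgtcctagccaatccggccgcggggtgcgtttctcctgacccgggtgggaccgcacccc
COX6B1: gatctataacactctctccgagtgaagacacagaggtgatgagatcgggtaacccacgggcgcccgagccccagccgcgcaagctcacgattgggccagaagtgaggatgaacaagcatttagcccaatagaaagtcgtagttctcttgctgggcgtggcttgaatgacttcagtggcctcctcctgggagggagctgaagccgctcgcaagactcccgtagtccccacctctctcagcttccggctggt
The COX6B2 window is 72.8% G and C with 26 CpG pairs, and that of COX6B1 57.6% with 14. No methylation or factor binding was measured here.

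**Figure D4:**
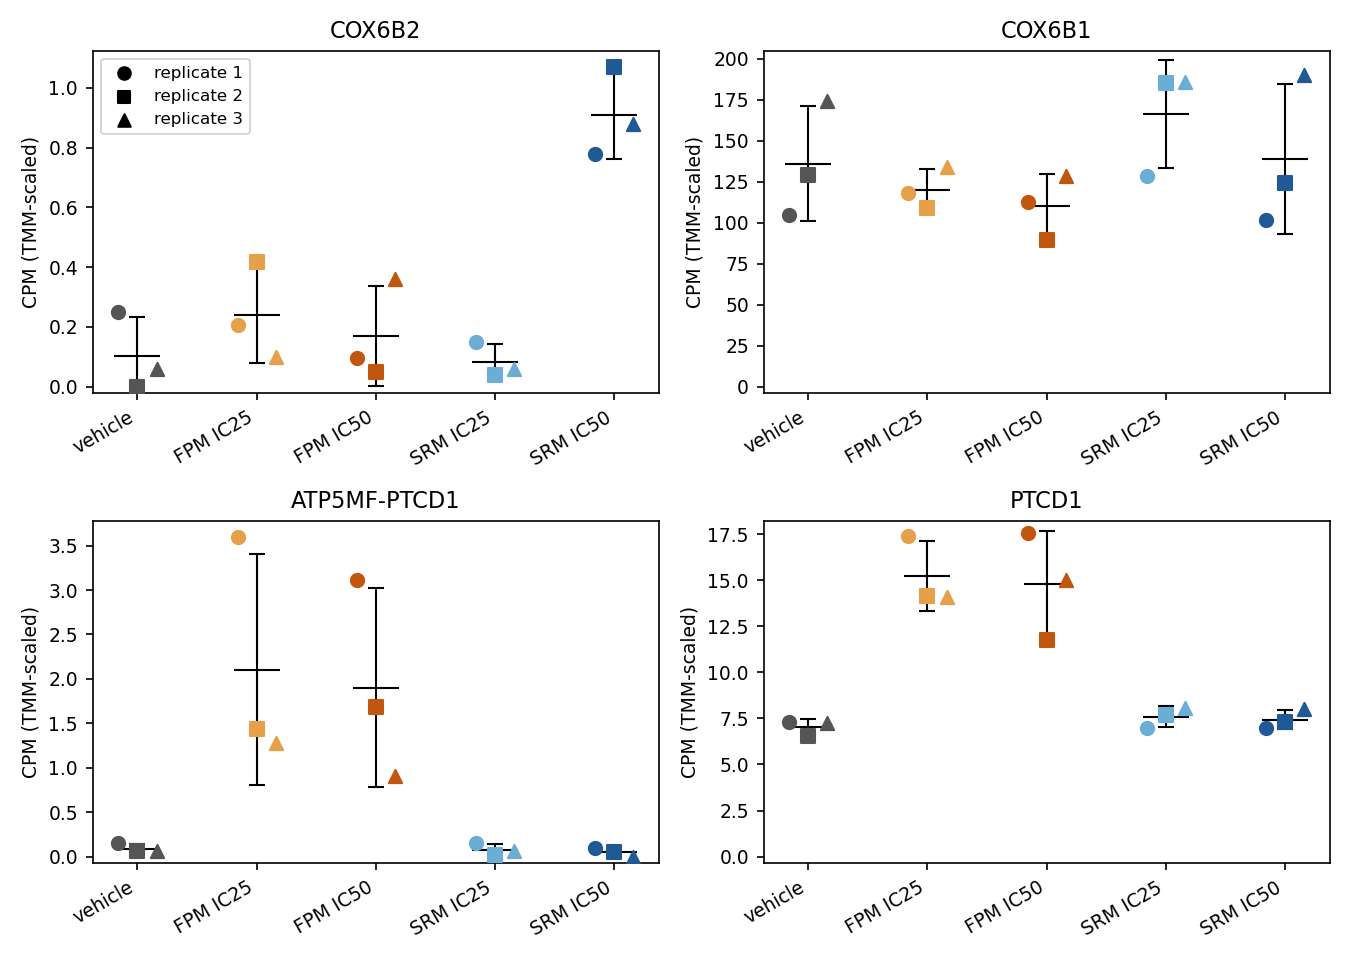
TMM-scaled CPM (y axis) of COX6B2, COX6B1, ATP5MF-PTCD1 and PTCD1 in each library by group (x axis); bars are mean and SD of 3 libraries and the marker shape is the replicate number. COX6B2 reaches 0.780 to 1.07 CPM at SRM IC50 and at most 0.418 CPM elsewhere, while COX6B1 spans 89.5 to 190 CPM with overlapping groups; ATP5MF-PTCD1 and PTCD1 are higher in all 6 FPM libraries.

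Between the doses of fine particulate matter no subunit gene passed the test. Between FPM_IC50 and FPM_IC25, 0 of 81 genes passed edgeR's test, at an adjusted or an unadjusted p under 0.05, where 0.0105% and 4.12% of all tested genes were called (0% higher and 0.0105% lower by adjusted p), and DESeq2 also called 0. The median log2 fold change was -0.08, with 70 of 81 estimates below 0. UQCRHL had every FPM_IC50 library below every FPM_IC25 library (log2 fold change -0.34 ± 0.20, adjusted p = 1, edgeR). Between the doses of the reference material 2 of 81 genes were called, both higher at SRM_IC50, where 26.9% of all tested genes were called (13.7% higher and 13.2% lower). They were COX6B2 and NDUFS1, the iron-sulphur core subunit of complex I, which measured 91.8, 93.1 and 85.0 CPM at SRM_IC25 and 113, 112 and 96 CPM at SRM_IC50 (log2 fold change 0.25 ± 0.08, adjusted p = 0.0265, edgeR). NDUFS1 was lost in 10 of 16 alternatives, among them without SRM_IC50 replicates 1 or 2 and without SRM_IC25 replicate 3. Without SRM_IC50 replicate 3, 11 genes were called instead of 2, and 9 of these were lower. The share of all genes called in that fit is not given here.

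The dose step was then compared between the particles in 1 test, as the change from IC25 to IC50 under FPM minus that under SRM. COX6B2 was the 1 gene of 81 that differed, lower in FPM, where 14.6% of all tested genes were called, 8.01% higher and 6.59% lower (log2 difference -4.14 ± 1.14, adjusted p = 0.0226, edgeR). It was lost without replicate 2 of FPM_IC25, FPM_IC50 or SRM_IC25, each of which held 1 to 9 counts of the gene. Here too COX6B2 was tested only because the SRM_IC50 libraries passed the filter on low counts.

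Set against each other at IC25, the particles differed in 2 subunit genes, ATP5MF-PTCD1 (higher in FPM) and NDUFB10 (lower), where 10.5% of all tested genes were called (9.89% higher and 0.605% lower). ATP5MF-PTCD1 passed the filter on low counts only through the FPM libraries. NDUFB10, an accessory subunit of the membrane arm of complex I, measured 51.9, 55.4 and 59.1 CPM at FPM_IC25 and 73.3, 86.3 and 88.7 CPM at SRM_IC25, groups that did not overlap (log2 fold change -0.58 ± 0.17, adjusted p = 0.0442, edgeR). It was lost without any of the 3 FPM_IC25 libraries and without SRM_IC25 replicates 2 or 3. The median over the 81 genes was -0.32, with 75 estimates below 0. With no filter on low counts 40 genes were called instead of 2, and 11 when only the 2 groups were fitted. The shares of all genes in these fits are not given here.

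The largest number of subunit genes passed at IC50, where 13 of 81 were lower in FPM than in SRM and 1 was higher. This was 17.3% of the 81 genes beside 39.3% of all tested genes, where 23.2% were called higher and 16.2% lower. The median log2 fold change was -0.31 (all tested genes 0.016), with 78 of 81 estimates below 0. Complex I gave 6 of the 13 (among them NDUFS6, NDUFS5, NDUFC1, NDUFS4 and NDUFA6), complex III 2 (UQCRH and UQCRHL), complex IV 2 (COX6B2 and COX5A), the ATP synthase 2 (ATP5PD and ATP5MC1) and complex II 1 (SDHB). ATP5MF-PTCD1 was the gene that was higher. It passed the filter on low counts only through the FPM libraries, and COX6B2 only through those of SRM_IC50.

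UQCRH led the well-expressed genes. It measured 181, 153 and 204 CPM at FPM_IC50 and 237, 250 and 416 CPM at SRM_IC50, with no overlap (log2 fold change -0.74 ± 0.21, adjusted p = 0.00906, edgeR). NDUFS6, a complex I subunit that binds zinc, measured 67.4, 58.2 and 77.8 CPM against 79.2, 84.7 and 163 CPM. In both genes SRM_IC50 replicate 3 was far above its 2 companions. ATP5PD, a stalk subunit of the ATP synthase, measured 85.3, 76.1 and 106 CPM against 117, 117 and 193 CPM (-0.67 ± 0.20, adjusted p = 0.0139). NDUFS5 had a log2 fold change of -0.62 ± 0.22 and NDUFC1 one of -0.60 ± 0.23, with adjusted p of 0.0332 and 0.0452. SDHB, the iron-sulphur subunit of complex II, was the 1 gene of the 13 whose groups overlapped, at 27.1 to 38.0 CPM against 36.6 to 52.9 CPM. In all, 14 of the 81 genes had every FPM_IC50 library below every SRM_IC50 library, where 20.2% of all tested genes did.

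Most of these calls rested on single libraries. Without SRM_IC50 replicate 3, 3 genes were called lower (COX6B2 and NDUFS1 among them) and the median of the 81 was -0.09. In that fit 35.8% of all tested genes were called, in either direction. Without FPM_IC50 replicate 2, 2 were called lower (UQCRH among them), where 32.8% of all tested genes were called. Without FPM_IC50 replicate 1 there were 5, where 35.3% of all were called. Leaving out SRM_IC50 replicate 1, the library with the lowest sum of its group, gave 22, where 37.5% of all tested genes were called. With no filter on low counts 45 genes were called instead of 14, and 9 when only the 2 groups were fitted. The shares of all genes in these last 2 fits are not given here. UQCRH was called in 14 of 16 alternatives, with log2 fold changes of -0.89 to -0.45, and ATP5PD in 12 of 15.

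**Figure D5:**
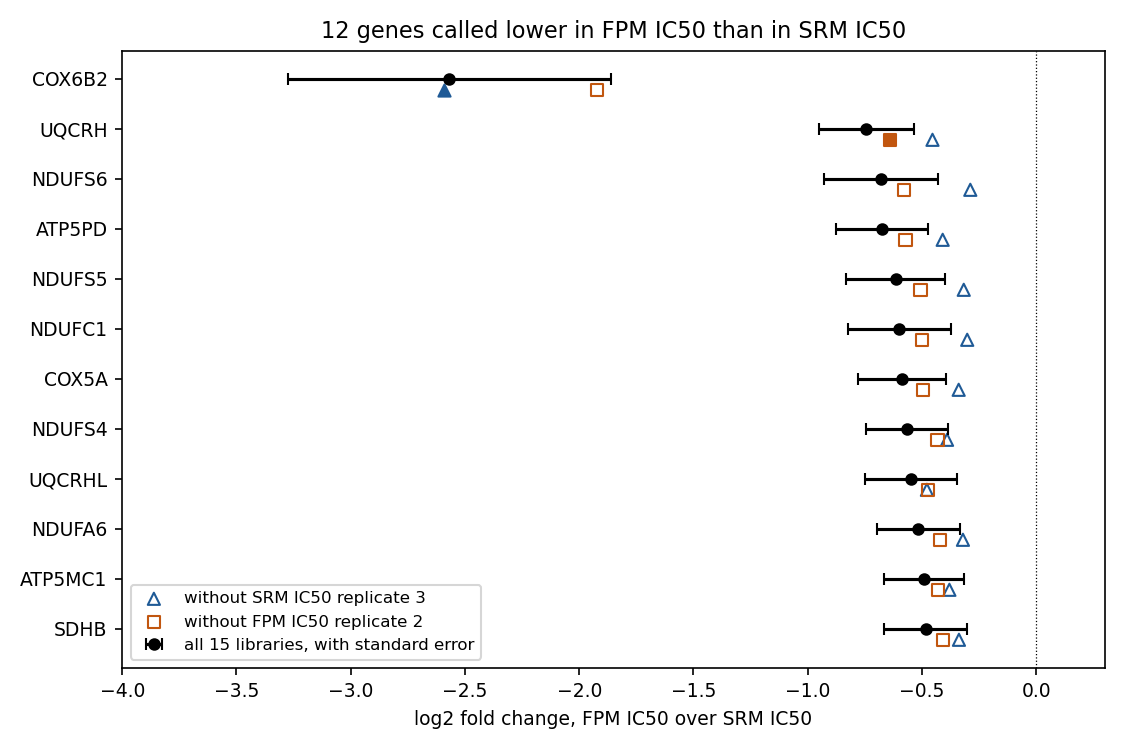
Log2 fold changes of FPM IC50 over SRM IC50 (x axis) for 12 of the genes called lower (y axis); black points and bars are estimates with standard errors from all 15 libraries, and coloured markers leave out 1 library, filled where the adjusted p stayed under 0.05. Without SRM IC50 replicate 3 the estimates of NDUFS6 and NDUFC1 shrink to -0.29 and -0.30, and UQCRH, at -0.45, is no longer filled.

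The regulatory sequence of the genes was described with 4 motifs known from nuclear respiratory genes: the NRF1 palindrome, the ETS motif bound by GABP (CCGGAAGT), YY1 (the capitals of NDUFS4 and SDHB shown at the end of the paragraph) and the ERR motif (TCAAGGTCA). None of the 4 contains another, and they were sought on both strands of windows from 250 bases before to 50 after the RefSeq start site (GRCh38.p14). Windows were found for 70 of the 90 genes. The ETS motif lay in 14.3% of them and in 4.44% of all 27305 windows, NRF1 in 5.71% and 1.36%, YY1 in 5.71% and 0.916%, and ERR in 1.43% and 0.359%. Of the 13 genes lower at FPM_IC50 than at SRM_IC50, 10 had a window and 4 of these held a motif. Among the other 60 windows 13 did, and these 60 include windows of untested genes, which could not be called. The stretches around these 4 motifs are shown because they are the motif-bearing subset of the genes that differed between the particles, with the motif in capitals (ETS in UQCRH and ATP5PD, read as its reverse complement; YY1 in NDUFS4 and SDHB).
UQCRH: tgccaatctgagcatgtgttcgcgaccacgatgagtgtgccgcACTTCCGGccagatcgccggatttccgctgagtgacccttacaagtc
ATP5PD: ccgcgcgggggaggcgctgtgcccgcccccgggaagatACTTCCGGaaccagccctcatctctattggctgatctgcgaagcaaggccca
NDUFS4: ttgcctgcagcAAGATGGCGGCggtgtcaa
SDHB: gtcaggagccAAGATGGCGGCggtggtcgc
They lie at chr1:46303608-46303697 (plus strand), chr17:75047020-75047109 (minus), chr5:53560649-53560678 (plus) and chr1:17054003-17054032 (minus) of GRCh38.p14. The YY1 matches of NDUFS4 and SDHB lie after the start site, in transcribed sequence, and hold an ATG, so that they may include coding sequence. A match describes these letters and is not evidence of binding.

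The genes around the respiratory chain were counted from lists in the same fit. Of all tested genes 39.3% were called between the particles at IC50, 16.2% lower in FPM. The particles differed in 19 of 76 mitochondrial ribosome genes, all lower in FPM, in 11 of 22 import genes, all lower, in 16 lower and 3 higher of 54 assembly factors, in 6 lower of 12 electron carrier and related genes, in 5 lower of 18 tricarboxylic acid cycle genes and in 10 lower and 2 higher of 18 glycolysis genes. Of 16 biogenesis regulators 4 were lower and 3 higher, and of 77 cytosolic ribosomal protein genes 3 were lower. For the first 6 lists in that order, the lower counts were 12, 7, 10, 3, 5 and 9 without SRM_IC50 replicate 3, 14, 7, 10, 4, 3 and 9 without FPM_IC50 replicate 1, and 11, 8, 9, 4, 3 and 9 without FPM_IC50 replicate 2. Of the 13 mitochondrially encoded subunits, 6 were lower and 1, MT-ND6, higher, and 2 were lower without FPM_IC50 replicate 1. Import was led by TIMM10, at 28.4 CPM in FPM_IC50 and 48.3 in SRM_IC50, and HSPA9, the matrix chaperone of the import motor, at 312 against 478 CPM (log2 fold change -0.61 ± 0.08, adjusted p = 9.71e-06, edgeR). CYCS, cytochrome c itself, stood at 133 against 212 CPM (-0.67 ± 0.12, adjusted p = 2.63e-04). NDUFAF4, a complex I assembly factor, stood at 21.9 against 38.4 CPM (-0.80 ± 0.16), and LDHA, which turns pyruvate into lactate, at 242 against 412 CPM (-0.77 ± 0.09).

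Between the doses of the reference material, genes of these lists were also called, where 26.9% of all tested genes were called (13.7% higher and 13.2% lower). From SRM_IC25 to SRM_IC50, 11 of 54 assembly factors rose and 4 fell, 9 of 76 mitochondrial ribosome genes rose and 1 fell, 4 of 12 electron carrier genes and 3 of 22 import genes rose, and 7 of 18 glycolysis genes rose and 2 fell. Of 18 tricarboxylic acid cycle genes and of 16 biogenesis regulators, 4 each rose and 1 each fell, and 1 of 13 mitochondrially encoded and 1 of 77 cytosolic ribosomal protein genes rose. Without SRM_IC50 replicate 3 the assembly factors stood at 6 higher and 7 lower, and the import genes at 3 and 2. In the same fit the mitochondrial ribosome genes stood at 8 higher and 2 lower, and the cytosolic ribosomal protein genes at 1 and 21. The share of all genes called in that fit is not given here. Without SRM_IC25 replicate 1 the higher assembly factors numbered 5 and the glycolysis genes 4, and without SRM_IC50 replicate 2 the assembly factors stood at 6 higher and 1 lower. NDUFAF7, a methyltransferase of complex I assembly, led the risers at 29.6 CPM in SRM_IC25 and 48.5 in SRM_IC50 (log2 fold change 0.71 ± 0.08, adjusted p = 6.79e-06, edgeR). CYCS rose from 136 to 212 CPM (0.64 ± 0.12, adjusted p = 7.71e-04). Whether these lists differ from the subunits was not tested.

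Of the 16 biogenesis regulators, 1 was higher and 1 lower than UNT at FPM_IC25, where 14.2% of all tested genes were called. At FPM_IC50 2 were higher and 1 lower (13.6% of all genes), at SRM_IC25 1 and 1 (4.37%), and at SRM_IC50 2 and 1 (17.6%). TFAM, which packages and transcribes mitochondrial DNA, was called lower in 3 of the 4 exposures. It measured 114, 128 and 133 CPM in UNT, 95.5, 93.8 and 99.8 at FPM_IC25, 92.4, 104 and 108 at FPM_IC50, 98.5, 95.9 and 103 at SRM_IC25 and 114, 118 and 135 at SRM_IC50. The adjusted p against UNT was 0.0068, 0.0302, 0.0448 and 0.879 in that order (edgeR), with log2 fold changes of -0.37, -0.30, -0.33 and -0.03. PPARGC1B, a coactivator of respiratory genes, rose at SRM_IC50 from 3.78, 3.11 and 1.40 CPM in UNT to 7.76, 7.18 and 4.75 CPM (1.26 ± 0.27, adjusted p = 0.00319). ESRRG, a nuclear receptor that works with such coactivators, fell there from 6.72, 6.70 and 5.37 CPM to 3.15, 3.61 and 3.60 CPM (-0.87 ± 0.16, adjusted p = 0.00122). PPARGC1A, NRF1 and ESRRA did not pass at SRM_IC50, with log2 fold changes of -0.38, 0.13 and 0.09. ESRRA rose at FPM_IC50 (0.44 ± 0.12, adjusted p = 0.0205) and had 0.36 ± 0.12 at FPM_IC25 (adjusted p = 0.0542).

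Several mitochondrially encoded subunits fell with fine particulate matter while MT-ND6 rose. At FPM_IC25, 5 of 13 were lower (MT-ND2, MT-CO2, MT-CO3, MT-ATP6 and MT-ATP8) and 1 higher than UNT, and at FPM_IC50 3 (MT-CO2, MT-ATP6 and MT-ATP8) and 1, where 3.51% and 2.77% of all tested genes were lower. Without single libraries, the lower count ran from 3 (UNT replicates 2 or 3, FPM_IC25 replicate 1) to 8 (FPM_IC25 replicate 2) at FPM_IC25 and from 2 (UNT replicate 3, FPM_IC50 replicate 1) to 3 at FPM_IC50. When genes with opposite-strand exons were left out of the fit, all 13 were still tested, 1 and 0 were lower, and the median log2 fold changes were -0.32 and -0.26 instead of -0.38 and -0.31. MT-CO2, a catalytic subunit of complex IV, measured 4377, 5382 and 5327 CPM in UNT, 2654, 3763 and 3495 at FPM_IC25 and 3131, 3176 and 3726 at FPM_IC50, with no overlap (log2 fold change -0.61 ± 0.14, adjusted p = 0.00605, and -0.59 ± 0.14, adjusted p = 0.00749, edgeR). MT-ATP6, the proton channel subunit of the ATP synthase, fell by 0.66 and 0.61 log2 units. At SRM_IC25 1 of 13 was lower than UNT by edgeR, where 3.38% of all tested genes were lower. There 9 of the 13 estimates were below 0, with a median log2 fold change of -0.12. At SRM_IC50 0 of 13 passed by edgeR, with a median log2 fold change of 0.06. The libraries were made from polyadenylated RNA, and the part of that selection or of opposite-strand reads in these values was not tested.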

How the data were processed

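Per the submitters' processing notes, HISAT2 2.2.1, SAMtools 1.10 and featureCounts (Subread 2.0.15) were used with the GRCh38 build; for annotation release, strand setting and multiply mapped reads the entry is "not given in the sources used here". The deposited tables hold raw counts per gene and the authors' FPKM from the same counts; 1 column belongs to no sample and holds lengths.

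Counts of 15 libraries were tested with edgeR 4.0.16 (R 4.3.3; TMM, filterByExpr, robust quasi-likelihood, 5 group means in 1 fit, Benjamini-Hochberg over 19012 genes at 0.05), after tests on simulated data. CPM are TMM-scaled. No pair of replicates looked like a repeated library (lowest chi-square 5.5 per gene). Positions and overlaps came from GENCODE 29, promoters from RefSeq. The intervals use 10 residual degrees of freedom.

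Named genes are those called with groups that do not overlap and a mean of at least 1 CPM, up to 8 each way against UNT and 5 otherwise, plus fixed paralogs and catalytic subunits, up to 4 called genes per surrounding list and 4 regulators; NDUFA10, UQCRC2, ATP5PO, NDUFC2, NDUFS5 and ATP5MK as levels, COX5A, NDUFS4, NDUFA6, TTN, ACTA1, TNNT2, overlapping and neighbouring genes were named after their values were seen. Genes and lists were chosen with earlier results of these data known. Alternatives were DESeq2 1.42.0, its size factors, no filter, the replicate block, a GC correction, genes without opposite-strand neighbours, limma 3.58.1 on log2(FPKM + 1 or 0.1), only the groups compared, SRM and UNT libraries only, and leaving out each library. A planned comparison of protein sequences was not run, and results of 1 gene that enters the counts are not reported here.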

Additional observations from a re-analysis of the deposited data

Results flagged for a closer look

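COX6B2 differed between the particles in its dose step: the log2 change from IC25 to IC50 was lower by -4.139 under FPM than under SRM in an interaction test (SE 1.14, adjusted p = 0.0226, edgeR). Its mean CPM was 0.170 at FPM_IC50 and 0.909 at SRM_IC50. The gene passed the filter on low counts only through SRM_IC50, so this result is not independent of the filter.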

How the results depend on the processing

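Counts of called genes among the 81 moved with the settings as follows, with no direction reversed in any alternative. Apart from leave-outs between the particles at IC50, the shares of all tested genes called in these settings are not given. The moves are therefore not read as particular to the 81. With no filter on low counts, 14 were called in FPM_IC25 against UNT (1 in the reported fit), 29 in FPM_IC50 against UNT (2), 4 in SRM_IC25 against UNT (2), 1 in SRM_IC50 against UNT (2), 6 between SRM doses (2), 40 between particles at IC25 (2), 45 between particles at IC50 (14) and 2 in the dose step (1). With the replicate block the counts were 10, 20 and 5 for the first 3 comparisons with UNT, 6 between SRM doses, 27 and 36 between particles at IC25 and IC50, and 2 in the dose step. The shared numbers do not establish pairing: 16 of 30 same-numbered pairs of libraries had correlated deviations over 0.1 (lowest -0.131, median 0.147). Among pairs with different numbers 10 of 60 did (lowest -0.38, median -0.0694), and 11 of 15 libraries correlated best with their own number. Whether a number marks a shared batch is not in the labels and was not tested. A GC correction gave 0 in SRM_IC25 against UNT and 1 between particles at IC25.

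Without genes that have an opposite-strand gene within 5 kb, 18 of the genes were tested and 2 were called between particles at IC50 and 0 in the other 7 comparisons that had calls. ATP5MF-PTCD1, the 1 call at FPM_IC25 against UNT, and COX6B2, the 1 call in the dose step, were themselves left out. Their calls were therefore removed with the genes and not lost. Without genes that have opposite exon overlap, which again left out ATP5MF-PTCD1, 48 were tested, with 0 and 0 called for FPM_IC25 and FPM_IC50 against UNT, 1 for SRM_IC25 against UNT, 1 between SRM doses, 0 between particles at IC25 and 5 at IC50. limma on log2(FPKM + 1) and on log2(FPKM + 0.1) gave the same counts: 0 in FPM_IC25 against UNT, 1 in FPM_IC50 and in SRM_IC50 against UNT, 0 between SRM doses, 0 and 6 between particles at IC25 and IC50, and 0 in the dose step. With limma and no filter they were 1 in FPM_IC50 and 0 in SRM_IC25 against UNT, 1 between SRM doses, and 1 and 4 between particles. The filtered limma fits required at least 1 FPKM in 3 libraries. COX6B2 and ATP5MF-PTCD1 did not reach that, so neither was tested there and their calls were not lost. Fitting only the groups compared gave 1, 0 and 1 for FPM_IC50, SRM_IC25 and SRM_IC50 against UNT, 1 between SRM doses, and 11 and 9 between particles at IC25 and IC50. Fitting SRM and UNT libraries only, chosen after seeing the data, gave 0 for SRM_IC25 and 1 for SRM_IC50 against UNT and 1 between SRM doses. DESeq2 gave 0 in the dose step, where its adjusted p for COX6B2 was NA (unadjusted p = 0.00106), so no call was lost there.

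Leaving out each replicate in turn gave 1 to 4 and 1 to 9 for FPM_IC25 and FPM_IC50 against UNT, 0 to 1 and 1 to 2 for SRM_IC25 and SRM_IC50 against UNT, 1 to 11 between SRM doses, 1 to 4 and 3 to 23 between particles at IC25 and IC50, and 0 to 2 in the dose step. Of 230 fixed gene and comparison pairs that did not pass, 45 passed in at least 1 alternative. COX6B2 and ATP5MF-PTCD1 rest on few counts, where 3 counts are 0.0504 to 0.309 CPM. Each passed the filter on low counts only through the groups where it was high.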
